A study of Mus musculus with 12 samples.

Results

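Apod, Apoe and Clu, the genes of apolipoprotein D, apolipoprotein E and clusterin (apolipoprotein J), are 3 of the 43243 gene names measured by RNA sequencing in mouse prostate organoids. They were selected on their genotype differences within each pair and on their levels in pair S5 against S0 to S4, and found by symbol, so both are described here without a test. Mutant and control organoids were compared. SPOPmut organoids carry a mutant SPOP (F133V by the protocols), the substrate-binding subunit of a ubiquitin ligase, and SPOPwt organoids are their controls. Each genotype had 6 libraries, numbered S0 to S5, and mutant and control of a number were treated as a pair. Prostate cells were grown in Matrigel with 5 to 50 ng/ml EGF, and 1 µM 4-hydroxytamoxifen overnight switched on a CreERT2 recombinase. This recombinase came from a virus in model A, whose cells were also selected with puromycin, and from a Tmprss2-driven transgene in model B. Mutant cells were sorted for GFP and controls passed the sorter in a sham sort, so the mutant and the selection cannot be told apart. By the protocols 5 pairs belong to model A and 1 to model B, but which one is not labelled. Separate cultures or animals behind the pairs are not stated either, so spreads and p-values describe the variation among these libraries, which may be technical. The age of the mice is not given.

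All 3 proteins are secreted and bind lipid. Apolipoprotein D is a lipocalin, a small barrel-shaped carrier of arachidonic acid and steroids, and its RNA is known to accumulate in growth-arrested cells. Apolipoprotein E is the ligand by which lipoprotein particles are taken up by cells through lipoprotein receptors, and it is made mainly by liver, macrophages and astrocytes. Clusterin is an extracellular chaperone and complement inhibitor that is taken up through some of the same receptors. In the rat prostate its RNA is known to rise after castration.

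The genes are unlinked. On GRCm38 with GENCODE M21, Apod (ENSMUSG00000022548.14) lies on chromosome 16 at 31296192 to 31314808 on the minus strand, with 2577 bases of exon. Apoe (ENSMUSG00000002985.16) lies on chromosome 7 at 19696109 to 19699188 on the minus strand, with 2138 bases of exon. Clu (ENSMUSG00000022037.15) lies on chromosome 14 at 65968483 to 65981547 on the plus strand, with 3437 bases of exon. No other annotated gene overlaps any of them. The promoters of Apod and Apoe are shown because S3 and S4 stood high for Apod and low for Apoe, and S5 the other way round. Each run gives the 250 bases before the annotated start, 5′ to 3′ on the gene's own strand, from RefSeq on GRCm38.p6 (chr16:31314809-31315058 and chr7:19699189-19699438, both minus). Capitals mark the only motif match found in these runs. RefSeq lists 3 starts for Apoe and 1 for Apod, and only the start that meets the GENCODE gene boundary was searched. The promoter of Clu is not shown.
Apod: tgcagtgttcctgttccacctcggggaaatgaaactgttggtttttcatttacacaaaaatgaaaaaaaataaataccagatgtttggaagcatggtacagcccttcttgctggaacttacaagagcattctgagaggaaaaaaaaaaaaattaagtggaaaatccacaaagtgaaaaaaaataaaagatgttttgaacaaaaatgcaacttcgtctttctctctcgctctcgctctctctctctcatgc
Apoe: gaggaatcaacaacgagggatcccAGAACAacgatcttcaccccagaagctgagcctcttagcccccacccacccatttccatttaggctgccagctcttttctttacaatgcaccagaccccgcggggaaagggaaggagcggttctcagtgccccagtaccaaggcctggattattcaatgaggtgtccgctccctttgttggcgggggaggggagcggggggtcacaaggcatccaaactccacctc
The Apod promoter has a GC content of 36.4%, lower than all but 6.24% of the 32851 promoters in the table, and holds long runs of A and a stretch of CT repeats. The Apoe promoter has a GC content of 57.2%, with 64.7% of promoters below it. The motifs searched on both strands were the TATA box (TATAAA), the GC box (GGGCGG), the CCAAT box (CCAAT), the E-box (CACGTG) and the AP-1 site (TGANTCA). Also searched were the repeat bound by the sterol receptor LXR (AGGTCA and AGGTCA, 4 bases apart), the heat shock element (GAA, TTC and GAA, each 2 bases apart) and the androgen response element (AGAACA and TGTTCT, 3 bases apart). The last was also searched by its first arm alone (AGAACA), which overlaps it. This single arm was found once in the Apoe promoter, at -226 to -221 from the start, and 16.1% of promoters hold it. Of promoters of the same length, 12.4% hold the TATA box, 32.7% the GC box, 33.8% the CCAAT box, 6.02% the E-box and 6.75% the AP-1 site. The heat shock element is in 0.466%, the LXR repeat in 0.0152% and the full androgen response element in 0.00913%.

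Levels are RPKM as deposited, a read density scaled for transcript length and library size. Depth, estimated from the spacing of low values, was 28270000 to 40980000 reads per library, and 13012 to 13885 genes per library reached 1 RPKM. Pair S5 differed in kind from the other pairs. The summed RPKM of 10 basal markers (among them the keratins Krt5 and Krt14) was 3342 in the S5 mutant and 2360 in the S5 control, against 19.2 to 26.9 in the 10 libraries of S0 to S4, and that of 10 luminal markers was 1902 and 1798, against 67.6 to 210. That of 14 fibroblast and smooth muscle markers was 18.9 and 18.5 in S5, against 1663 to 3351 in S0 to S4. The epithelial adhesion gene Epcam peaked at 1.28 RPKM across S0 to S4, against 88.6 RPKM in the S5 mutant and 96.3 RPKM in the S5 control. Not every marker followed these sums. Hoxb13, a transcription factor of the luminal list that marks prostate epithelium, was lowest in S5. It stood at 5.04 RPKM in the S5 mutant and 4.43 RPKM in the S5 control, against 10.3 to 29.9 RPKM in S0 to S4. Dst of the basal list was also lowest there, at 8.53 and 8.46 RPKM, against 9.47 to 13.4 RPKM.

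Apod stood above its control in 6 of 6 pairs. In SPOPmut it stood at 2.55 (S0), 2.11 (S1), 1.46 (S2), 9.97 (S3), 11.2 (S4) and 0.443 RPKM (S5), against 1.61, 0.845, 0.693, 8.28, 4.76 and 0.0376 RPKM in the SPOPwt libraries of the same numbers. The genotypes overlap over all libraries, and the pairs differ more from each other than mutant from control. The mean was 4.62 ± 4.68 RPKM in the mutants, against 2.70 ± 3.20 in the controls (SD, n = 6). Within pairs the mutant was above its control by 1.58-fold in S0, 2.50-fold in S1, 2.11-fold in S2, 1.20-fold in S3, 2.35-fold in S4 and 11.8-fold in S5. The S5 ratio rests on about 38.6 reads in the mutant and about 3.97 in the control, where counting error alone is 50.2% of the control's value. On the log2(RPKM + 1) scale, which understates the change of low genes, the pair differences averaged 0.59 ± 0.29 (SD, n = 6), with the smallest in S3 (0.24) and the largest in S4 (1.08). With a pseudocount of 0.1 the mean was 1.05. Over all 13600 genes tested, those at 1 RPKM or more in at least 6 libraries (Apod, Apoe and Clu among them), 3.62% were higher in 6 of 6 pairs. S1 and S2 were nearly alike over all genes, and the S0 libraries were not shown to match. Counts of pairs, here and for Apoe and Clu, thus may not rest on 6 separate matched pairs.

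Apoe was low in all libraries and stood lower in the mutant in 5 of 6 pairs. Its levels were 1.27 (S0), 1.29 (S1), 1.33 (S2), 0.737 (S3), 0.679 (S4) and 2.97 RPKM (S5) in SPOPmut, against 1.52, 1.23, 1.36, 1.03, 0.953 and 5.25 RPKM in SPOPwt. Mutant and control of S1 and of S2 were nearly level, while the mutant of S5 stood at 0.565 times its control. Outside S5 these values rest on about 44.5 to 123 reads each, a counting error of 9.01 to 14.99% per library. The small S1 and S2 differences lie within it. In S0, S3 and S4 the mutant stood at 0.836, 0.714 and 0.712 times its control. A difference carries the error of both libraries, so these 3 are not clearly beyond counting error either. The genotype means were 1.38 ± 0.83 RPKM in the mutants, against 1.89 ± 1.66 in the controls (SD, n = 6). The pair differences averaged -0.21 ± 0.24 on the log2 scale (SD, n = 6), from -0.66 in S5 to 0.036 in S1, and -0.12 without S5. Among all genes tested, 9.67% were lower in at least 5 pairs and 1.68% in all 6.

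Clu had no common direction. It stood at 17.8 (S0), 4.33 (S1), 7.07 (S2), 86.1 (S3), 42.5 (S4) and 704 RPKM (S5) in SPOPmut, against 5.55, 8.77, 9.63, 68.9, 21.8 and 307 RPKM in SPOPwt. Thus the mutant was above its control in 4 pairs, by 3.21-fold in S0, 1.25-fold in S3, 1.95-fold in S4 and 2.29-fold in S5. In S1 and S2 it stood at 0.493 and 0.734 times its control. At about 494 reads or more per library, counting error is at most 4.50%, well under each of these differences. S1 and S2, the pairs where Clu was lower, were nearly alike over all genes in both genotypes and are not shown to be separate. The mean difference of 0.45 ± 0.94 (SD, n = 6) is smaller than the spread between pairs, and it was 0.23 without S0 and 0.71 without S1. In S0, mutant and control deviated together far less than in the other pairs (r = 0.0602 over genes, against 0.753 to 0.954), so that the data do not show the S0 libraries to be a matched pair. Mutants and controls of different numbers were not compared, so matching by number in S1 to S5 was not tested. Per library, Clu took the 26th highest value of all gene names in the S5 mutant and the 148th in the S5 control.

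**Figure D1:**
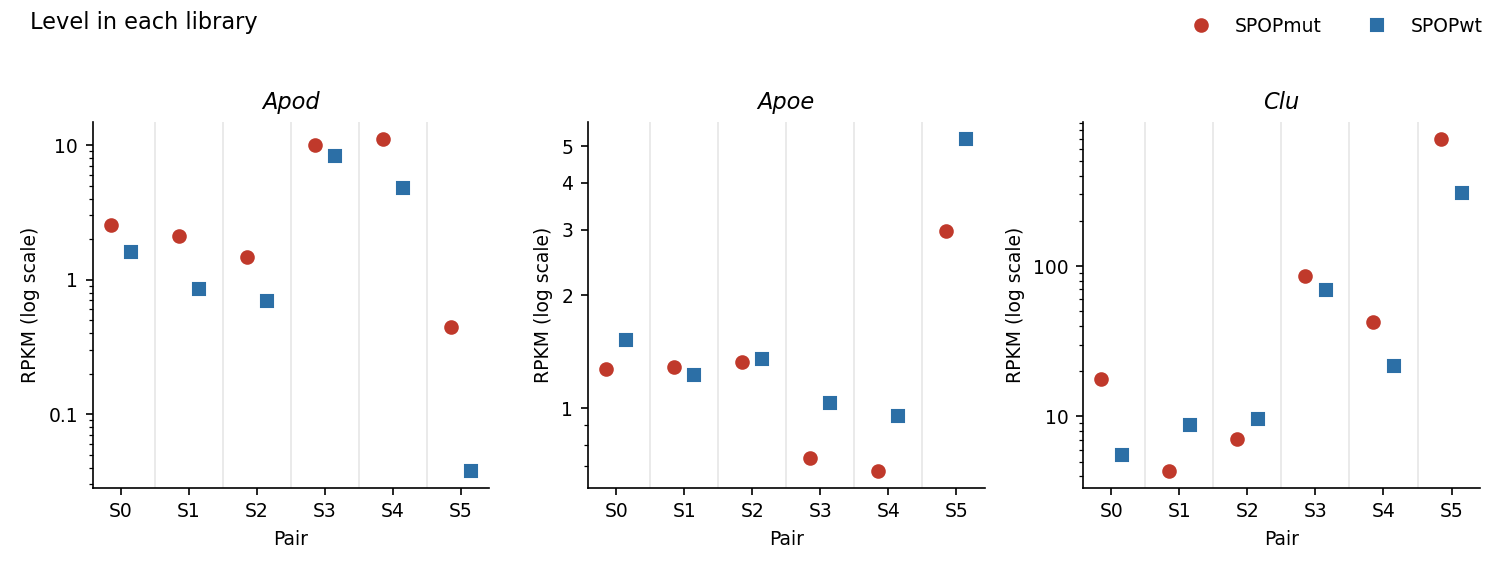
RPKM on a log axis of Apod, Apoe and Clu in each of the 12 libraries, with SPOPmut (circles) left of SPOPwt (squares) in each pair. Apod is above its control in every pair and lowest in S5, Apoe is highest in S5, and Clu spans 4.33 to 704 RPKM.

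**Figure D2:**
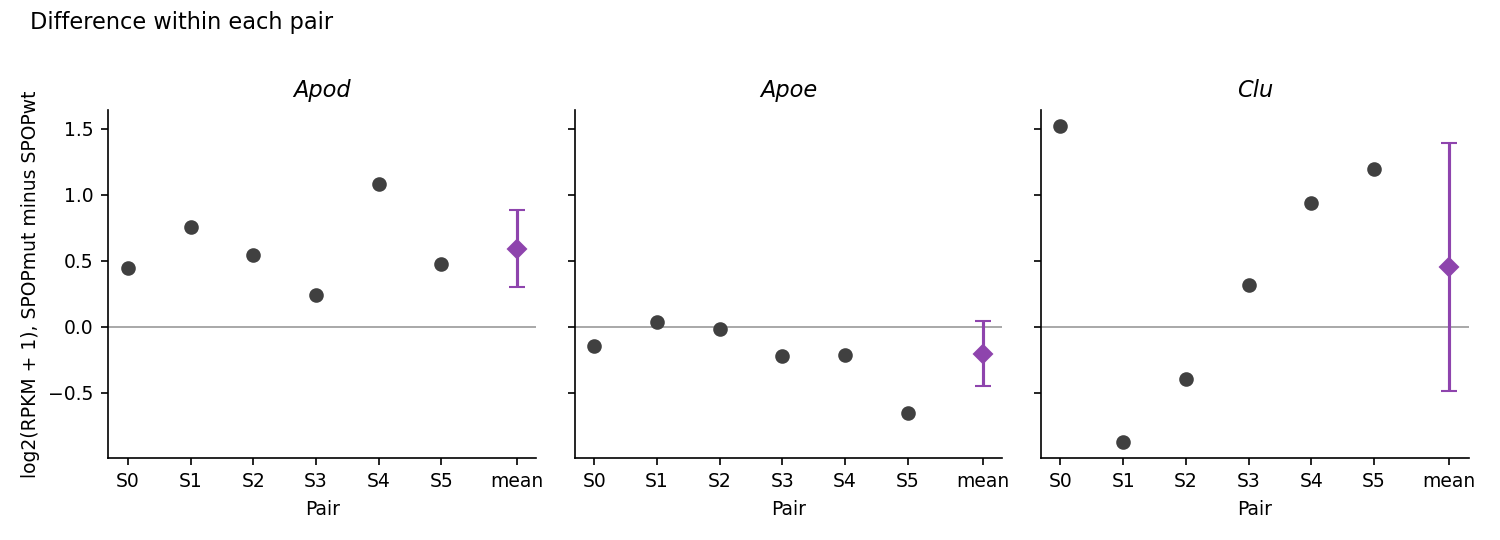
Difference in log2(RPKM + 1), SPOPmut minus SPOPwt, in each pair (dots), with the mean and SD over 6 pairs (diamond and bar). The Apod differences lie between 0.24 and 1.08, those of Apoe between -0.66 and 0.036, and those of Clu on both sides of 0, between -0.87 and 1.52.

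The differences between pairs were larger than those between genotypes, and the genes did not share an order. For Clu, pair means ran from S1 (6.55 RPKM) through S2 (8.35), S0 (11.7), S4 (32.1) and S3 (77.5) to S5 (505). Mutant and control of S1, S2 and S0 overlap between neighbouring pairs, whereas S4, S3 and S5 each lie above the pair before. For Apod the order was S5 (0.240 RPKM), S2 (1.08), S1 (1.48), S0 (2.08), S4 (7.96) and S3 (9.12). S5 lies below S2, and S4 above S0, while S1 overlaps both S2 and S0, which do not overlap each other, and S4 overlaps S3. Apoe ran from S4 (0.816 RPKM) and S3 (0.884), which overlap, through S1 (1.26), S2 (1.34) and S0 (1.40) to S5 (4.11). S0 overlaps both S2 and S1, and S5 lies above all.

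In S5, Clu and Apoe stood above every library of S0 to S4 and Apod below every one. Clu was at 704 RPKM in the S5 mutant, against a median of 17.8 and a highest of 86.1 RPKM in the 5 other mutants, and at 307 RPKM in the S5 control, against 9.63 and 68.9 RPKM in the 5 other controls. Its S5 level was thus 22.3 times the mean of the other mutants and 13.4 times that of the other controls. Apoe was at 2.97 RPKM in the S5 mutant, against 0.679 to 1.33 RPKM in the other mutants, and at 5.25 RPKM in the S5 control, against 0.953 to 1.52 RPKM in the other controls. The ratios to their means were 2.80 in SPOPmut and 4.30 in SPOPwt. Apod, by contrast, was 12.3-fold lower in S5 than the mean of the other mutants, and 86.1-fold lower than that of the other controls, the value that rests on about 3.97 reads. Of the genes tested, 21.4% were above, and 28.1% below, every library of S0 to S4 in both S5 libraries. The filter drops genes that reach 1 RPKM in S5 alone; with 1 RPKM in at least 2 libraries asked for, a choice made after seeing the data, the shares were 24.9% and 27.0% of 15508 genes. In RNA of whole cultures, fewer cells of a type and less RNA per cell cannot be told apart.

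Within S0 to S4, Apod and Clu were high where Apoe was low. The 4 libraries of S3 and S4 held 4.76 to 11.2 RPKM of Apod, against 0.693 to 2.55 RPKM in the 6 libraries of S0 to S2. Clu stood at 21.8 to 86.1 RPKM in S3 and S4, against 4.33 to 17.8 RPKM in S0 to S2, and Apoe at 0.679 to 1.03 RPKM against 1.23 to 1.52 RPKM. None of these ranges overlap. Of all genes tested, 16.8% had S3 and S4 above every library of S0 to S2 and 7.52% below. Over the 10 libraries, which share 5 pairs, Pearson's r of log2(RPKM + 1) was 0.88 for Apod and Clu, -0.89 for Apod and Apoe and -0.84 for Apoe and Clu. It was 0.068, -0.0056 and -0.37 over the 6 libraries of S0 to S2, so the relation rests on the step between these sets of pairs.

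Summed cell type markers were set beside these levels. Fibroblast and smooth muscle markers summed to 2360 to 3351 RPKM in S3 and S4 and to 1663 to 2503 RPKM in S0 to S2. Proliferation markers (10 genes, among them Mki67) summed to 49.6 to 318 RPKM in S3 and S4, against 232 to 463 RPKM in S0 to S2, and to 31.5 RPKM in the S5 mutant and 51.6 RPKM in the S5 control. By pair, the proliferation sum was lower in the mutant in S0 (232 against 435), S4 (257 against 318) and S5 (31.5 against 51.6), where Clu was higher. It was higher in the mutant in S1 (463 against 438) and S2 (458 against 418), where Clu was lower, and in S3 (72.9 against 49.6), where Clu was also higher. The part of these markers in the results was not tested. Macrophage and immune markers summed to 28.5 RPKM in the S5 mutant and 28.3 RPKM in the S5 control, against 11.2 to 25.8 RPKM in S0 to S4. Of the 14 genes, 10 stayed under 1 RPKM in every library. The pan-leukocyte gene Ptprc reached 0.0019 RPKM at most, and C1qa, C1qb and Tyrobp were listed at 0 in both S5 libraries. Other genes of the list lay above every library of S0 to S4 in S5. Csf1r was at 3.83 RPKM in the S5 mutant and 3.21 RPKM in the S5 control, against at most 1.80 RPKM. Cd14 was at 20.4 and 20.3 RPKM, against at most 16.8 RPKM. Itgam was at 0.044 and 0.024 RPKM, against at most 0.022 RPKM, values near 0 that do not clearly separate S5. Mertk and Lyz2 of the same list went the other way, below every library of S0 to S4 in S5. Mertk was at 0.117 RPKM in the S5 mutant and 0.075 RPKM in the S5 control, against at least 1.10 RPKM. Lyz2 was at 0.012 and 0.019 RPKM, against at least 0.021 RPKM, which are also values near 0. The part of the macrophage and immune genes in the Apoe level was not tested. Schwann cell and glial markers summed to 23.9 and 19.8 RPKM in the S5 mutant and control, where Apod was lowest, against 0.321 to 1.62 RPKM in S0 to S4. Mbp and Erbb3 made most of that S5 sum, and the glial factor Sox10 reached 0.019 RPKM at most. Endothelial markers summed to 1.13 to 3.43 RPKM over all libraries. Adipocyte markers summed to 0.142 and 0.0675 RPKM in the S5 mutant and control, against 16.9 to 30.9 RPKM in S3 and S4 and 3.25 to 6.34 RPKM in S0 to S2, almost all of it Fabp4. Mesothelial markers summed to 644 and 933 RPKM in S5, against 40.1 to 210 RPKM in S0 to S4. In S5 this sum was almost all Msln and Krt19, and the mesothelial factor Wt1 reached 0.0049 RPKM at most.

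The neighbours on the chromosome were examined next. Clu and Scara3, a scavenger receptor gene 14548 bases away and transcribed in the opposite direction, moved together over S0 to S4. Scara3 stood at 11.003 (S0), 4.34 (S1), 5.60 (S2), 29.6 (S3) and 19.0 RPKM (S4) in SPOPmut, against 2.68, 6.46, 7.22, 27.3 and 14.1 RPKM in SPOPwt. Like Clu, it was higher in the mutant in S0, S3 and S4 and lower in S1 and S2. Pearson's r with Clu was 0.977 over these 10 libraries and 0.89 over the 6 of S0 to S2. That r ranks 65th among the 13599 other genes tested, and many genes share the order, since 1584 had an r with Clu of at least 0.9 and 1882 one of -0.9 or less. The likeness ended in S5, where Scara3 stood at 0.383 RPKM in the mutant and 0.187 RPKM in the control, below all other libraries, and Clu at its highest. On the other side of Clu, Gulo, the vitamin C synthesis gene, reached 0.117 RPKM at most. Near Apoe, Apoc1, the next apolipoprotein gene of its cluster, reached 0.0956 RPKM at most. Tomm40, a mitochondrial import channel gene 2125 bases from Apoe, ranged over 5.91 to 20.04 RPKM across S0 to S4 and stood at 10.6 and 12.1 RPKM in the S5 mutant and control, with no peak there. Near Apod, Ppp1r2, which encodes a phosphatase inhibitor, ranged over 7.54 to 15.9 RPKM across S0 to S4 and was at 23.4 and 20.2 RPKM in S5, where Apod was lowest. Bdh1, a ketone body enzyme gene, stayed at or under 0.197 RPKM across S0 to S4 and stood at 5.41 and 3.61 RPKM in S5.

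**Figure D3:**
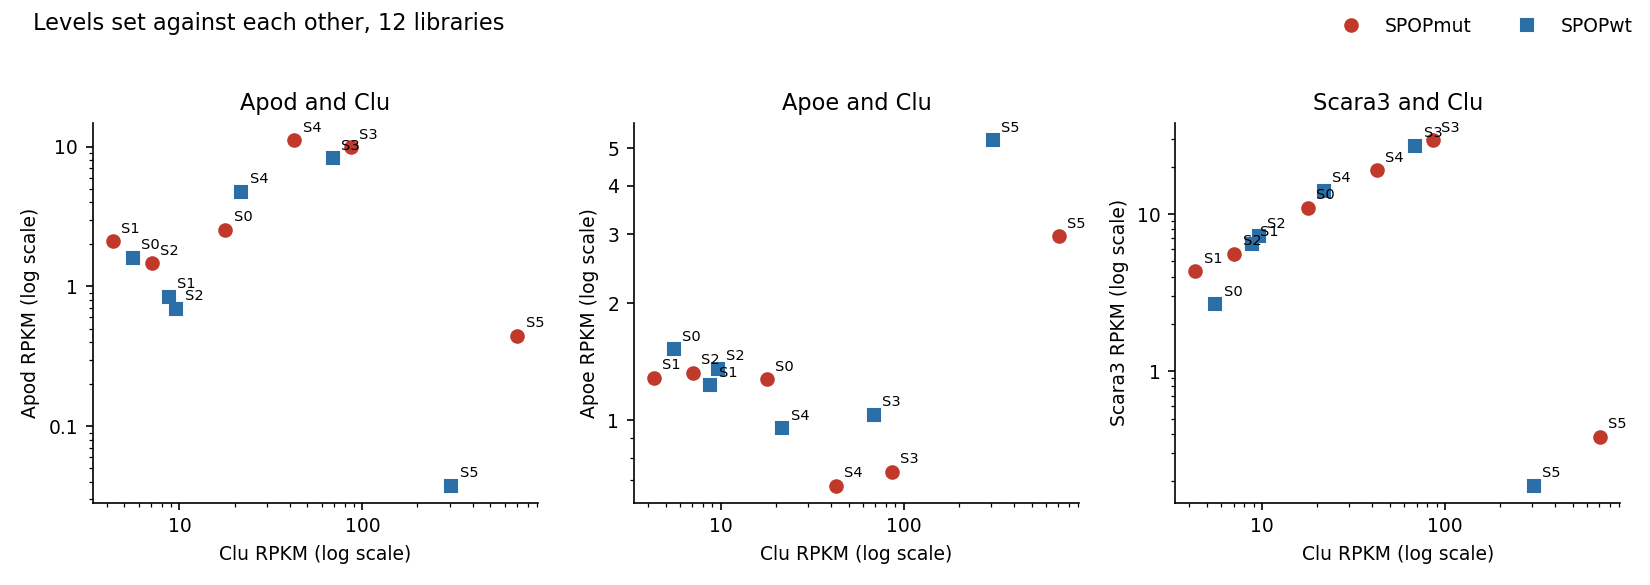
RPKM of Apod, Apoe and Scara3 against RPKM of Clu, both on log axes, in the 12 libraries (circles SPOPmut, squares SPOPwt, each marked with its pair). Scara3 follows Clu from S0 to S4 and drops to 0.383 and 0.187 RPKM in S5, where Clu is at 704 and 307 RPKM.

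Other genes with patterns most like these were sought over the same 10 libraries, and r is a description there. Closest to Apod were Nrep, a gene of neuronal regeneration (r = 0.99), Pmp22, a membrane protein gene also known as a growth arrest gene (r = 0.98), and Leprot, which shares its first exons with the leptin receptor gene (r = 0.98). Over S0 to S2 alone their r was 0.96, 0.89 and 0.96, and in S5 all 3 lay below their S0 to S4 ranges, as Apod did (0.018, 0.94 and 12.3 RPKM in the mutant, 0, 1.01 and 12.1 RPKM in the control). Closest to Clu were Phldb2, which anchors microtubules at the cell cortex (r = 0.99), the histone demethylase gene Kdm5b (r = 0.99) and the guanine nucleotide exchange factor gene Arhgef25 (r = 0.99). In S5, where Clu was highest, these stood at 19.4, 5.73 and 16.8 RPKM in the mutant and 25.4, 4.70 and 22.1 RPKM in the control, each within its own range in S0 to S4. Apoe had 42 genes at an r of at least 0.9, against 671 for Apod. Its closest were Vps37b, a subunit of the endosomal sorting machinery (r = 0.95), the phosphodiesterase gene Gde1 (r = 0.95) and the mitochondrial ribosomal gene Mrpl43 (r = 0.95). Vps37b alone of these 3 was, like Apoe, above S0 to S4 in both S5 libraries, at 27.2 RPKM in the mutant and 28.2 RPKM in the control.

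Genes of the same pathways were then compared between the genotypes with limma, which called none of 86 list genes (38 tested) and none of all 13600 genes at an adjusted p under 0.05 (0% called). At an unadjusted p under 0.05 stood 761 genes (5.6%), of which 520 were higher (3.82%) and 241 lower, and 6 of the 38 list genes, all 6 higher. With quantile normalization the split over all genes was 458 higher and 366 lower. The lists were chosen with earlier results of these data known, so their counts are a description and no test. Of the 38, 25 (65.8%) had a higher mean in SPOPmut and 13 a lower one, against 50.25% higher over all genes tested. The median difference was 0.11, against 0.00055 over all genes tested. Of the 12 other apolipoprotein genes, 0 could be tested, since all stayed under 1 RPKM in every library. Apoa2 was highest among them, at 0.772 RPKM.

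Of the 13 receptor genes, 9 were tested, with 3 higher and 6 lower on average (median -0.031). Sorl1, a sorting receptor that binds apolipoprotein E, was at 0.301 to 10.8 RPKM in SPOPmut, against 0.0995 to 8.26 in SPOPwt. The difference was 0.17 (SE 0.066, limma adjusted p = 0.881) and positive in 6 of 6 pairs. Counts of pairs among the list genes carry the limits given for Apod. The list genes given with a difference were named for a small p or a high level. Lrpap1, a chaperone of lipoprotein receptors, differed by 0.12 (SE 0.0997, limma adjusted p = 0.887). Bsg, a receptor reported for apolipoprotein D, was the most abundant and level, at 199 ± 16.5 RPKM in the mutants, against 200.3 ± 18.9 in the controls (SD, n = 6). The clearance receptor Lrp1 was also well above 1 RPKM throughout, at 22.8 to 96.5 RPKM, whereas Lrp2 and Trem2 reached 0.0099 and 0.351 RPKM at most.

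Among 11 lipid transporter and lipase genes 4 were tested, 1 of them higher and 3 lower on average (median -0.045). Pltp, the phospholipid transfer protein, was at 10.1 ± 6.73 RPKM in the mutants, against 9.47 ± 10.0 in the controls (SD, n = 6), a difference of 0.25 (SE 0.22, limma adjusted p = 0.887) made of 1.53 in S0 and -0.45 to 0.28 in the other pairs. Lcat, which esterifies cholesterol on lipoproteins, differed by -0.073 (SE 0.075, limma adjusted p = 0.898). Of 12 sterol-sensing regulators 11 were tested, 8 higher and 3 lower on average (median 0.022). Rxra, the partner of the sterol receptors, differed by 0.16 (SE 0.069, limma adjusted p = 0.886) and was higher in 6 of 6 pairs. Mylip, a ubiquitin ligase induced by sterols, differed by 0.37 (SE 0.21, limma adjusted p = 0.887), with 1.56 in S0 and -0.15 to 0.50 in the others, and by 0.13 without S0. Srebf2, the master factor of cholesterol synthesis, was at 77.5 ± 20.3 RPKM in the mutants, against 78.9 ± 13.6 in the controls (SD, n = 6).

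Lipocalins, the family of apolipoprotein D, had 3 of 11 members tested, all 3 higher on average. Of these, C8g is also counted in the complement list, where its difference is given. Lcn2, an iron-binding lipocalin of inflamed epithelium, was at 11.97 ± 8.58 RPKM in the mutants, against 8.52 ± 9.66 in the controls (SD, n = 6), a difference of 0.67 (SE 0.42, limma adjusted p = 0.887) that ran from -1.06 in S5 to 2.54 in S0. Rbp4, the plasma carrier of retinol, differed by 0.28 (SE 0.23, limma adjusted p = 0.887) and was, like Apod, higher in S0 to S4 than in S5, where it was listed at 0 in both libraries. Without S0 the Rbp4 difference was 0.034 and that of Lcn2 0.30. Extracellular chaperones, the functional kin of clusterin, had 3 of 6 members tested and all 3 higher on average. Sparc, a collagen-binding matrix protein, was at 496 ± 269 RPKM in the mutants, against 425 ± 220 in the controls (SD, n = 6), a difference of 0.29 (SE 0.11, limma adjusted p = 0.881), higher in 5 of 6 pairs. Hp, the haemoglobin scavenger haptoglobin, differed by 1.02 (SE 0.56, limma adjusted p = 0.887), from -0.73 in S3 to 4.21 in S0, and by 0.38 without S0.

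In the complement list 2 of 13 genes were tested, both higher on average. C3, the central component, was at 249 ± 213 RPKM in the mutants, against 199.9 ± 226 in the controls (SD, n = 6), a difference of 0.59 (SE 0.26, limma adjusted p = 0.886), or 0.35 without S0. C8g, a lipocalin of the terminal complex, differed by 0.035 (SE 0.11, limma adjusted p = 0.955). It was higher in 3 pairs and lower in 3, and its difference was -0.060 without S0. The terminal components C6, C7 and C9, whose assembly clusterin blocks, reached no more than 0.025 RPKM. Growth arrest genes had 7 of 10 members tested, 6 higher and 1 lower on average (median 0.31). Gas6, a ligand of the TAM receptors, was at 0.708 to 18.3 RPKM in SPOPmut, against 0.207 to 18.3 in SPOPwt, and had the smallest limma adjusted p of the lists (0.769). Mutant and control differed by 0.49 (SE 0.10), with every pair positive, from 0.0034 in S3 to 0.77 in S0. Like Apod, Gas6 had its smallest difference in S3, but its S5 levels of 9.79 RPKM in the mutant and 5.57 RPKM in the control were not low. Pdgfra, a growth factor receptor of fibroblasts, differed by 0.42 (SE 0.16, limma adjusted p = 0.881), again higher in 6 of 6 pairs and 0.25 without S0. Gas1 differed by 0.14 (SE 0.19, limma adjusted p = 0.906). In S5, where Apod was lowest, the list went both ways. Cdkn1a, Cdkn1c, Cdkn2b and Ddit4 lay above every library of S0 to S4, Gas1, Gas7 and Pdgfra below, and Gas2, Gas6 and Cdkn1b within. Cdkn1a was at 163 and 101 RPKM in the S5 mutant and control, against at most 55.0 RPKM. Gas7 was at 0.581 and 0.200 RPKM, against at least 5.40 RPKM. The part of these genes in the Apod level was not tested.

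**Figure D4:**
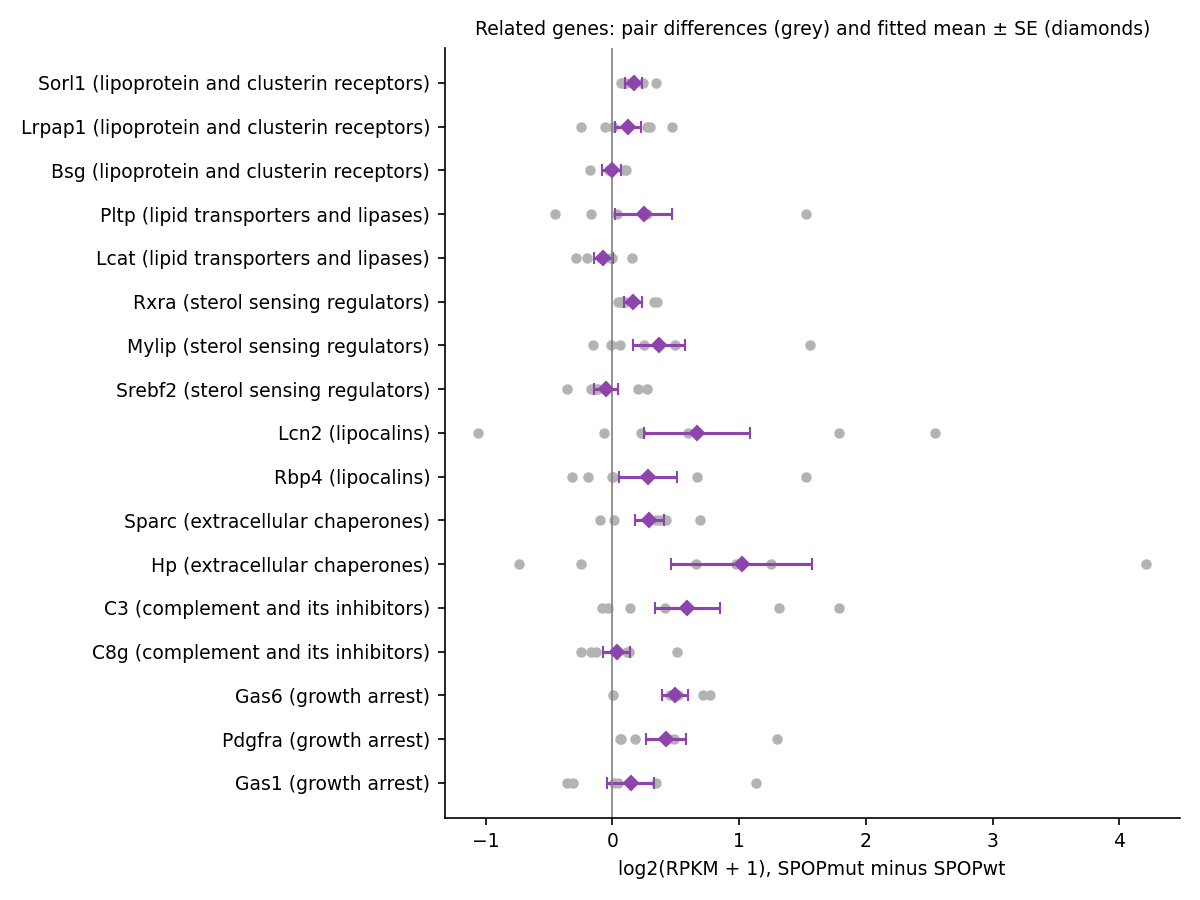
Differences in log2(RPKM + 1), SPOPmut minus SPOPwt, of the 17 list genes named, by pair (grey dots) and as the limma estimate with its SE (diamonds and bars). Most estimates lie between -0.1 and 0.7, none passed an adjusted p under 0.05, and the widest spreads belong to Hp and Lcn2, with their highest dots in S0.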

How the data were processed

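RNA of 12 organoid libraries was sequenced as paired-end reads with a kit that does not mark strand. Alignment was by STAR 2.4.0j to the mouse genome (GRCm38, also listed as mm10), per the submitters' processing notes. How reads were counted, and on which annotation, is not given in the sources used here. The deposited files hold RPKM by the authors, 1 value per gene name.

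Exon lengths from GENCODE M21, found for 91.0% of gene names, gave approximate reads: 40.3 to 43.2% of values of up to 20 reads lay within 0.04 of a multiple of 0.5 reads, against 16% by chance. Whole reads were thus not recovered and no count test was run. Counting error is the square root of the approximate reads and covers counting alone. No libraries were merged as duplicates, but S1 and S2 were nearly alike in both genotypes. Their median chi-square per gene was 1.09 in SPOPwt and 1.84 in SPOPmut, against 0.455 from sampling alone. All other libraries compared within a genotype were at 6.46 or more. Counts, spreads and fits over pairs take S1 and S2 as separate, which these values do not show.

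Values were transformed to log2(RPKM + 1). Genes at 1 RPKM or more in at least 6 libraries (13600) were fitted by limma 3.58.1 (R 4.3.3) on pair and genotype, with trend and robust set in its empirical Bayes step. P-values are two-sided and adjusted by Benjamini-Hochberg over these genes, with calls under 0.05. The fit was tested on simulated data. Other steps used Python 3.11.15 with pandas 2.3.3. The pairs come from the protocols. Deviations from the group means correlated at 0.753 to 0.954 within S1 to S5, but at 0.0602 within S0. Mutants and controls of different numbers were not compared in this way. The high values thus do not show matching by number in S1 to S5, and every pairing rests on its label.

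The members and lists were chosen with earlier results of these data known. Named genes were the members, from each list those past the threshold or else the 2 of smallest p, and its most abundant tested gene, the 3 genes of highest r with each member, and the nearest named coding gene on either side. Lrp1, Lrp2, Trem2, Apoa2, C6, C7, C9, single markers and the S5 levels of the growth arrest genes were picked after their values were seen. The marker Adgre1 stood under its older symbol Emr1. Alternatives were the fit without the pair, a pseudocount of 0.1, other scalings and filters, rank correlation, and leaving out each pair.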

Additional observations from a re-analysis of the deposited data

Results flagged for a closer look

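Within a genotype, 6 libraries allow a check of whether the highest or lowest value stands apart from the rest, by its gap to the next value over the whole range of log2(RPKM + 1), with a limit of 0.625; chance exceeds the limit in about 1 of 20 groups. Of 40 groups checked (the members and the 17 related genes in each genotype), 7 exceeded it, all by S5. Over all 13600 genes tested, S5 exceeded it in 16.9% of genes in SPOPmut and 14.7% in SPOPwt, so the 17.5% here is near the background. Apoe in SPOPwt had S5 at 5.25 RPKM, with a gap of 0.780 of the range. Apoe was chosen on its S5 level, so this value is a description and no test. Sorl1 was highest in S5, with 10.8 RPKM in the mutant and 8.26 in the control. Lcat was lowest at 0.157 RPKM in SPOPmut, Gas1 at 3.11 RPKM in SPOPmut, and Sparc at 13.9 RPKM in the mutant and 8.25 in the control.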

How the results depend on the processing

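Under all 13 alternatives limma called 0 genes over all genes and 0 among the lists, also without the pair as a block and when any pair was left out (0 to 0). Genes at an unadjusted p under 0.05 numbered 761 of 13600 with the block for pair, 29 of 13600 without it and 1467 of 30285 with no filter on low values. The mean differences of Apod (0.49 to 0.66), Apoe (-0.25 to -0.12) and Clu (0.23 to 0.71) kept their direction when each pair was left out. With a pseudocount of 0.1, Apod moved to 1.05. The same pseudocount moved the S5 differences to -4.00 for Apod in SPOPwt, against -1.70, and to 1.45 (SPOPmut) and 2.04 (SPOPwt) for Apoe, against 0.96 in SPOPmut; a smaller pseudocount weights low values more by construction. Leaving out each of S0 to S4 gave S5 differences of -2.10 to -1.53 and -1.95 to -1.33 for Apod in SPOPmut and SPOPwt, 0.89 to 1.01 and 1.46 to 1.55 for Apoe, and 4.68 to 5.69 and 3.93 to 4.79 for Clu.

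Of 221 values of the 17 named list genes under alternatives, 213 kept their direction and 8 turned, all near 0. Bsg stood at 0.0078 with equal sums, 0.030 with quantile normalization and -0.028 to 0.028 when each pair was left out, the positive end without S1. C8g stood at -0.0031 with quantile normalization. The other turns came without S0, at the low end of -0.0078 to 0.39 for Pltp, -0.060 to 0.092 for C8g and -0.055 to 0.24 for Gas1, and at the high end of -0.12 to 0.011 for Srebf2. The cause was not tested. Genes with an r of at least 0.9 numbered 425 to 1422 for Apod, 36 to 260 for Apoe and 693 to 2199 for Clu when each of S0 to S4 was left out, against 671, 42 and 1584, and 262 by rank correlation for Apod. Depth limits Apoe in S0 to S4 and Apod in S5.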
